A study of Homo sapiens with 12 samples.

Results

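The genes described here are 9 matrix and mesenchymal genes that stood out in earlier results of these data as higher in the derivative labelled Addback: COL6A1, COL6A2, COL6A3, POSTN, DCN, COL1A1, PDGFRB, SRGN and CADM3. They were found by Ensembl identifier and make up 9 of the 58233 genes counted. All 9 were among the 15749 genes with enough counts to test, and all 9 also had enough counts when the Addback libraries were left out of the filter. RNA was measured in 12 libraries of MCF10-A, a human mammary epithelial line that does not form tumours. The line had 3 derivatives, labelled Addback, B4-4 and Vector, each with the treatment labels EDTA and NA and with 2 libraries per combination. EDTA chelates divalent cations such as calcium and magnesium. Cells of all 12 libraries were grown with 5% horse serum, trypsinised and held detached for 3 hours without serum on poly-HEMA, a coating to which cells do not adhere. The sources used here do not say how B4-4 and Addback were made, whether a derivative is 1 clone or a pool, what NA stands for, or when and at what dose EDTA was given. The series is about the integrin of the alpha 6 and beta 4 chains, through which epithelial cells bind laminin.

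Connective tissue matrix is built from fibrillar collagens such as collagen I, from the beaded filaments of collagen VI and from proteins and proteoglycans that bind them. Fibroblasts are its best known source. A collagen VI unit needs 3 chains, for which COL6A1, COL6A2 and COL6A3 code. Decorin (DCN) is a small leucine-rich proteoglycan that coats collagen fibrils, and periostin (POSTN) is a secreted matricellular protein that binds collagens and integrins. PDGFRB is a receptor tyrosine kinase for platelet-derived growth factors. Serglycin (SRGN) is a proteoglycan of secretory granules best known from blood cells. CADM3 is an immunoglobulin-type adhesion molecule best known from the nervous system.

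Promoters of 5 of the 9 genes (COL6A2, COL6A3, POSTN, PDGFRB and CADM3) were matched in RefSeq on GRCh38.p14, as 250 bases before to 50 bases after the transcript start. Those of COL6A2, POSTN and CADM3 are shown because these genes had the highest Addback NA levels relative to Vector NA and because the first 2 fell with EDTA in Addback while CADM3 did not pass that test. They lie at chr21:46097862-46098161 on the plus strand, chr13:37598719-37599018 on the minus strand and chr1:159171365-159171664 on the plus strand. Capitals mark every match on either strand to the TATA box (TATAAA), the CCAAT box (CCAAT), the GC box (GGGCGG), the AP-1 site (TGANTCA) or the TEAD site (CATTCC).
COL6A2: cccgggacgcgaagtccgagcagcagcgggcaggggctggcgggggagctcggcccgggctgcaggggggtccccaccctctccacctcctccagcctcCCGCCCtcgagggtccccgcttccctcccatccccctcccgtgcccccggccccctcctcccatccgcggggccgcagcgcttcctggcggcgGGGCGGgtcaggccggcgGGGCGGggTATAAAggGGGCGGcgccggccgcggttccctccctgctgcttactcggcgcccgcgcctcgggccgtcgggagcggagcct
POSTN: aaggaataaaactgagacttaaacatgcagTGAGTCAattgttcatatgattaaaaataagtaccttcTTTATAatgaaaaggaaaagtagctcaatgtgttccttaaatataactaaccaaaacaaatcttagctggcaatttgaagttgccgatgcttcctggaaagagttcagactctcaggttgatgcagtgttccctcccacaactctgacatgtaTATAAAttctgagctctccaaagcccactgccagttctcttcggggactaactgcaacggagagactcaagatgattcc
CADM3: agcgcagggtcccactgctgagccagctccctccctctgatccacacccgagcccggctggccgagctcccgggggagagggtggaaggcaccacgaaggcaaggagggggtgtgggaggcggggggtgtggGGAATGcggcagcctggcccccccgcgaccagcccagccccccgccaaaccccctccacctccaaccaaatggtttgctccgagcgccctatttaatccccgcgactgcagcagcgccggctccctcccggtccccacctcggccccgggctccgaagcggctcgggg
The COL6A2 promoter was 79.3% G and C and held a TATA box 32 bases before the start and 4 GC boxes, 151, 58, 40 and 24 bases before it. The POSTN promoter was 39.0% G and C and held TATA boxes 182 and 29 bases and an AP-1 site 220 bases before the start. The CADM3 promoter was 72.3% G and C, with a TEAD site 118 bases before the start and no other match. The matches did not overlap, and the median over all 34796 promoters was 58.7% G and C. Of those promoters, 11.6% held the TATA box, 34.6% the CCAAT box, 44.9% the GC box, 7.73% the AP-1 site and 14.0% the TEAD site. The 3 sequences thus have no motif in common other than the TATA box that COL6A2 and POSTN share.

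Library totals ran from 15685376 to 22156173 counts. Levels are CPM, read counts scaled to the size of the library with TMM factors. A count of 3 corresponded to 0.133 to 0.192 CPM. A mean ± SD is over n = 2 libraries, and a log2 fold change is followed by ± its SE. Nothing in the labels says that the 2 libraries of a group are separate cultures, so the p-values reflect the spread of these samples alone, and that spread may be technical. ITGB4, which codes for the beta 4 chain and serves as a check of the labels, stood at 1264 and 1525 CPM in Addback EDTA, 1060 and 1080 CPM in Addback NA, 372 and 390 CPM in B4-4 EDTA, 182 and 395 CPM in B4-4 NA, 1678 and 1850 CPM in Vector EDTA and 1775 and 1780 CPM in Vector NA. Both libraries of Addback EDTA and of B4-4 NA were less alike than those of the other groups, with a biological coefficient of variation of 18.8% and 24.2%, against 3.00% to 10.2% in the 4 other groups. Of the 9 genes, 4 differed at least 2-fold within Addback EDTA (COL6A3, DCN, PDGFRB and CADM3), 4 within B4-4 NA (COL6A3, POSTN, PDGFRB and CADM3), 1 within Vector NA (POSTN) and 0 in the other groups. The description of the library Addback EDTA 2 ends in L007, while the other 11 end in L008.

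These genes were selected on their levels in Addback relative to the other derivatives, so those values are a description with no test. No threshold was stated for the choice. In the NA libraries, both Addback libraries lay above all 4 B4-4 and Vector libraries for 8 of the 9 genes, the exception being COL1A1. In the EDTA libraries this held for 6 of the 9, the exceptions being COL6A3, COL1A1 and PDGFRB. The name of the group therefore holds for 8 genes in NA and for fewer in EDTA, and COL1A1 does not carry it under either label. Over both labels, all 4 Addback libraries lay above all 8 others for 6 of the 9 genes. Among all genes tested, 23.9% had both Addback libraries above all others in NA, 11% in EDTA and 2.75% over both labels; the genes were chosen on this contrast, so nothing is read from their count. By edgeR's test, 20% of all genes were called higher in Addback than in Vector and 12.7% higher in Addback than in B4-4 over both treatments (39.2% and 26.8% called in either direction). In bulk libraries, more cells expressing a gene and more RNA per cell cannot be told apart. All comparisons with Vector share the same Vector libraries, and all comparisons of Addback share the Addback libraries.

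**Figure D1:**
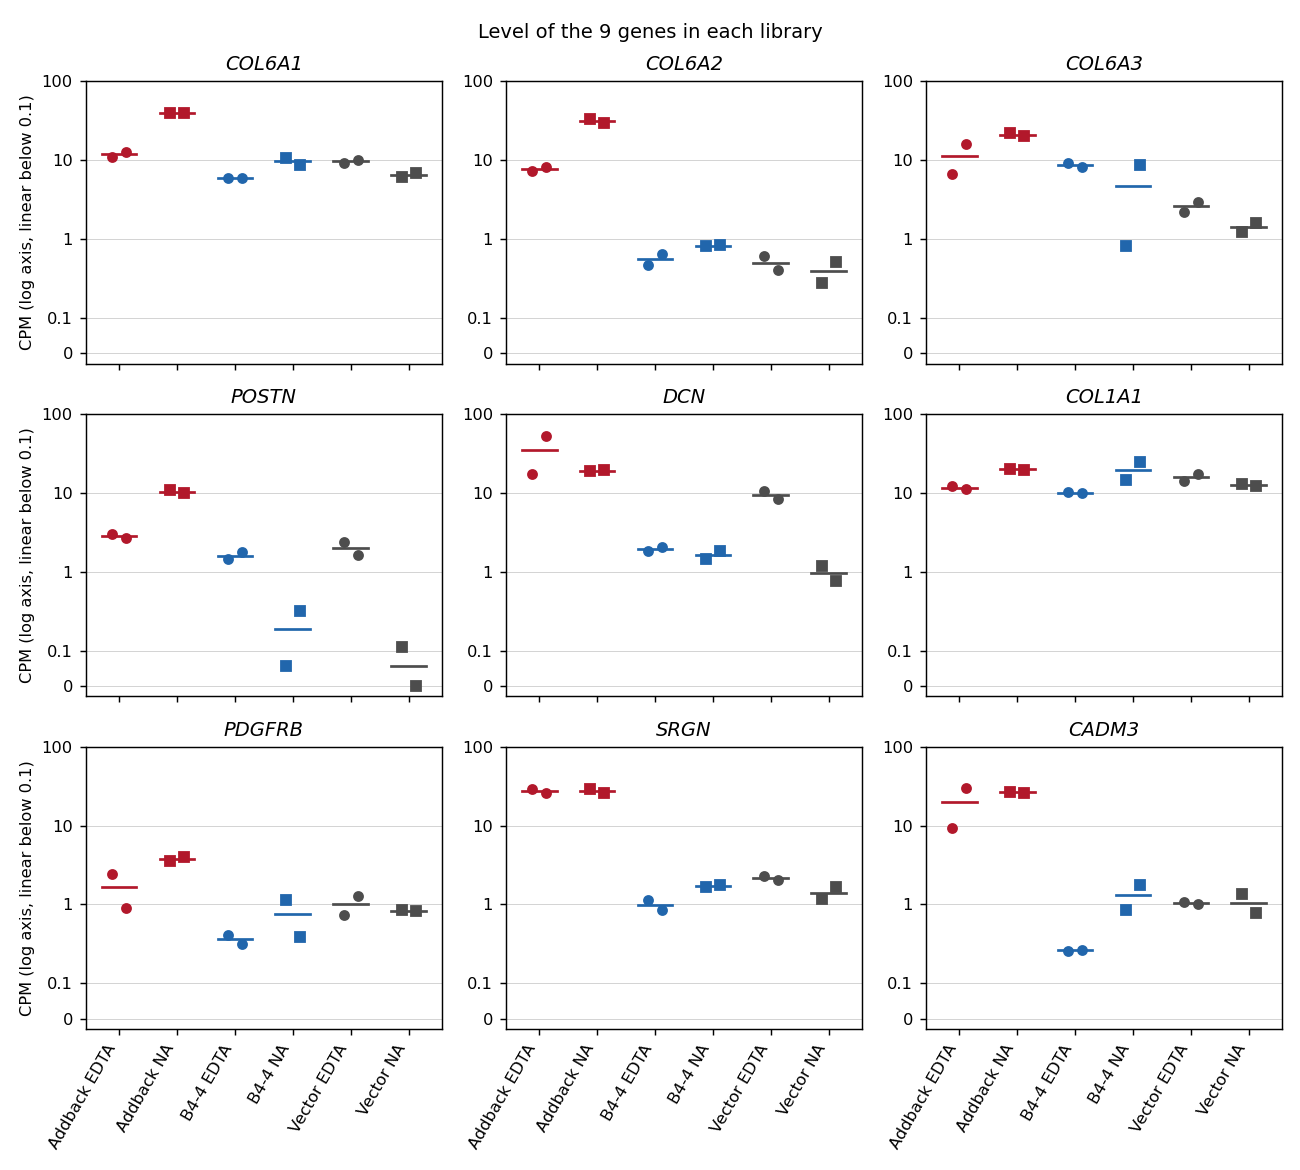
Level of each of the 9 genes in every library, in CPM on an axis that is logarithmic above 0.1 and linear below it. Points are libraries (circles EDTA, squares NA), horizontal lines are means of 2 libraries. The red Addback points lie above all others for COL6A1, COL6A2, POSTN, DCN, SRGN and CADM3, while for COL1A1 the 6 groups lie together between 9.96 and 24.4 CPM.

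The chains of collagen VI differed in how far they stood apart. COL6A2 (ENSG00000142173, chromosome 21, 46098097 to 46132849 on GRCh38) was at 7.25 and 8.19 CPM in Addback EDTA and 32.6 and 29.6 CPM in Addback NA. In the other libraries it had 9 and 12 counts in B4-4 EDTA, 14 and 13 in B4-4 NA, 13 and 9 in Vector EDTA and 5 and 10 in Vector NA, which is at most 0.830 CPM. The Addback libraries did not overlap with the rest under either label. COL6A2 was 15.3-fold higher in Addback than in Vector in EDTA (log2 3.93 ± 0.26, SE) and 76.2-fold higher in NA (6.25 ± 0.27).

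COL6A1 (ENSG00000142156, chromosome 21, 45981737 to 46005050) was expressed in every library. Its levels were 10.99 and 12.7 CPM in Addback EDTA, 39.3 and 39.7 CPM in Addback NA, 5.90 and 5.96 CPM in B4-4 EDTA, 8.75 and 10.7 CPM in B4-4 NA, 9.22 and 10.02 CPM in Vector EDTA and 6.05 and 6.94 CPM in Vector NA. Addback NA stood clear of all other groups, whereas Addback EDTA was only just above B4-4 NA and Vector EDTA. The difference of Addback from Vector was 1.23-fold in EDTA (0.30 ± 0.15) and 6.07-fold in NA (2.60 ± 0.15).

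COL6A3 (ENSG00000163359, chromosome 2, 237324003 to 237414375) was at 6.72 and 15.9 CPM in Addback EDTA, 21.7 and 19.9 CPM in Addback NA, 9.20 and 8.25 CPM in B4-4 EDTA, 0.804 and 8.62 CPM in B4-4 NA, 2.22 and 2.97 CPM in Vector EDTA and 1.23 and 1.59 CPM in Vector NA. Addback EDTA overlapped with B4-4 EDTA and with B4-4 NA, and the pair of B4-4 NA libraries had 14 and 135 counts. Addback exceeded B4-4 by 1.29-fold in EDTA (0.37 ± 0.75) and by 4.47-fold in NA (2.16 ± 0.79). It exceeded Vector by 4.34-fold in EDTA (2.12 ± 0.82) and by 14.6-fold in NA (3.87 ± 0.89). Of the nearest tested genes, COPS8, 224 kb away, had a log2 difference of Addback from Vector in NA of -0.42 ± 0.10. ENSG00000222032, 14.5 kb away on the other side, was at 0.661 CPM in Addback NA and at 0 in Vector NA. Against B4-4 in NA the log2 difference of Addback was -0.0038 ± 0.10 for COPS8 and 1.60 ± 0.77 for ENSG00000222032.

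Per kb of annotated exon, COL6A2 transcripts reached 0.654 and 0.638 of those of COL6A1 in Addback EDTA and 0.816 and 0.747 in Addback NA. In the 8 B4-4 and Vector libraries the same ratio was between 0.0395 and 0.106. COL6A3 reached 0.138 to 0.339 of COL6A1 per kb in the 4 Addback libraries, 0.0204 to 0.425 in the 4 B4-4 libraries and 0.0554 to 0.0807 in the 4 Vector libraries. The COL6A2 ratio thus separated Addback from the rest, while the COL6A3 ratio of Addback lay within the range of B4-4. COL6A1 and COL6A2 are neighbours on chromosome 21, 93.0 kb apart. The gene next to COL6A1 on the other side, PCBP3, 39.3 kb away, was at 2.84 CPM in Addback NA and 0.460 CPM in Vector NA (log2 2.62 ± 0.40). Against B4-4 in NA the PCBP3 difference was smaller (1.24 ± 0.35). SPATC1L, 28.3 kb beyond COL6A2, was at 13.6 CPM in Addback NA and 13.2 CPM in Vector NA (0.05 ± 0.14).

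**Figure D2:**
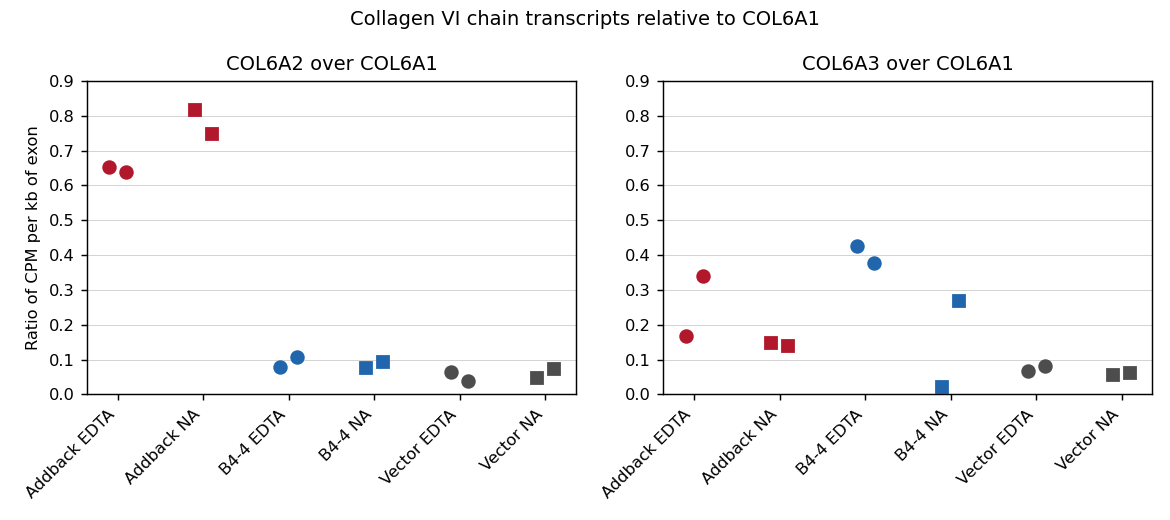
Ratio of COL6A2 (left) and COL6A3 (right) to COL6A1 in each library, in CPM per kb of exon. Points are libraries, circles EDTA and squares NA. The 4 Addback libraries lie between 0.638 and 0.816 for COL6A2, the other 8 at or below 0.106, while the right panel shows no such gap.

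The fibrillar collagen COL1A1 (ENSG00000108821, chromosome 17, 50183289 to 50201632) codes for the alpha 1 chain of collagen I. It was at 12.05 and 11.2 CPM in Addback EDTA, 19.97 and 19.5 CPM in Addback NA, 10.1 and 9.96 CPM in B4-4 EDTA, 14.4 and 24.4 CPM in B4-4 NA, 14.2 and 17.3 CPM in Vector EDTA and 12.8 and 12.1 CPM in Vector NA. Addback overlapped with the rest in both treatments. Over both treatments the log2 difference was 0.12 ± 0.15 against B4-4 and 0.11 ± 0.15 against Vector, and the first became -0.04 without B4-4 NA 1. Its difference from Vector had opposite signs in EDTA (-0.44 ± 0.21) and in NA (0.66 ± 0.21). COL1A2 and COL3A1, the chains with which fibroblasts build collagens I and III, had at most 3 counts in every library.

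SRGN, the granule proteoglycan (ENSG00000122862, chromosome 10, 69088106 to 69104811), was at 29.2 and 26.1 CPM in Addback EDTA and 28.6 and 25.8 CPM in Addback NA. In the other derivatives it was at 1.14 and 0.852 CPM in B4-4 EDTA, 1.66 and 1.79 CPM in B4-4 NA, 2.27 and 2.04 CPM in Vector EDTA and 1.18 and 1.65 CPM in Vector NA. All 4 Addback libraries lay in a narrow range more than 10 times above the rest. The difference from Vector was 12.8-fold in EDTA (3.68 ± 0.19) and 19.1-fold in NA (4.26 ± 0.20). Per kb of exon SRGN was the highest of the 9 genes in both Addback groups, at 22.7 CPM per kb in EDTA and 22.3 CPM per kb in NA.

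DCN (ENSG00000011465, chromosome 12, 91140484 to 91183123) was at 17.4 and 51.9 CPM in Addback EDTA, 19.0 and 19.3 CPM in Addback NA, 1.81 and 2.08 CPM in B4-4 EDTA, 1.44 and 1.85 CPM in B4-4 NA, 10.6 and 8.38 CPM in Vector EDTA and 1.18 and 0.771 CPM in Vector NA. Every Addback library lay above every other, and Vector EDTA lay between Addback and the remaining groups. The difference from Vector was 3.65-fold in EDTA (1.87 ± 0.41) and 19.6-fold in NA (4.30 ± 0.54). From B4-4 it was 17.8-fold in EDTA (4.15 ± 0.49) and 11.6-fold in NA (3.54 ± 0.51). LUM, the next gene on chromosome 12 and another leucine-rich proteoglycan, 28.7 kb from DCN, was at 3.51 CPM in Addback NA and 1.26 CPM in Vector NA (1.47 ± 0.45). BTG1, the nearest tested gene on the other side, 957 kb away, was at 405 CPM in Addback NA and 104 CPM in Vector NA (1.96 ± 0.23). Against B4-4 in NA the log2 difference of Addback was 0.69 ± 0.43 for LUM and 1.59 ± 0.23 for BTG1.

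POSTN (ENSG00000133110, chromosome 13, 37562583 to 37598844) was near the limit of counting in B4-4 NA and Vector NA. It had 51 and 47 counts in Addback EDTA, 193 and 181 in Addback NA, 28 and 33 in B4-4 EDTA, 1 and 5 in B4-4 NA, 51 and 37 in Vector EDTA and 2 and 0 in Vector NA. In CPM, Addback EDTA was at 2.98 and 2.67, Addback NA at 10.8 and 9.81, B4-4 EDTA at 1.45 and 1.76 and Vector EDTA at 2.36 and 1.64. The 3 derivatives were thus nearest to each other in EDTA. In NA, Addback had 374 counts against 2 in Vector, a ratio of 192 with an exact 95% interval of 52.8 to 1591, which covers counting error only. Against the 6 counts of B4-4 NA the ratio was 56.8 (25.8 to 156).

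PDGFRB (ENSG00000113721, chromosome 5, 150113837 to 150155872), the receptor of the group, had the lowest level per kb of exon in Addback NA, 0.528 CPM per kb. It had 42 and 16 counts in Addback EDTA, 63 and 74 in Addback NA, 8 and 6 in B4-4 EDTA, 20 and 6 in B4-4 NA, 16 and 29 in Vector EDTA and 15 and 16 in Vector NA. The Addback NA libraries, at 3.52 and 4.01 CPM, lay above all others, and Addback EDTA overlapped with Vector EDTA. The difference from Vector was 1.65-fold in EDTA (0.72 ± 0.50) and 4.50-fold in NA (2.17 ± 0.49). From B4-4 it was 4.51-fold in EDTA (2.17 ± 0.59) and 4.81-fold in NA (2.27 ± 0.50). CSF1R, 0.465 kb from PDGFRB, was at 7.85 CPM in Addback NA and 10.1 CPM in Vector NA (-0.36 ± 0.20). ARSI, 140 kb away on the other side, was at 1.73 CPM in Addback NA and 0.381 CPM in Vector NA (2.18 ± 0.64). Against B4-4 in NA the log2 difference of Addback was 0.10 ± 0.53 for ARSI and -0.69 ± 0.20 for CSF1R.

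CADM3 (ENSG00000162706, chromosome 1, 159171609 to 159203313), the adhesion molecule, was at 9.24 and 30.1 CPM in Addback EDTA and 26.9 and 26.0 CPM in Addback NA. It had 5 counts in each B4-4 EDTA library, 15 and 28 in B4-4 NA, 23 and 23 in Vector EDTA and 24 and 15 in Vector NA. Addback stood at least 5 times above every other library. The difference from Vector was 18.8-fold in EDTA (4.23 ± 0.57) and 24.998-fold in NA (4.64 ± 0.58). In EDTA, 688 Addback counts stood against 10 in B4-4, a ratio of 75.6 (exact 95% interval 40.9 to 158). The antisense gene CADM3-AS1 and the overlapping gene ACKR1 had 12 and 194 counts over all 12 libraries, with at most 4 and 76 in any library. It is not stated whether counting used strand. ACKR1 lies on the same strand as CADM3, so a strand setting would not separate their reads. The 8 nearest tested genes on both sides of CADM3, SRGN, POSTN and COL1A1 had log2 differences of Addback from Vector in NA between -0.44 (SUPT20H, beside POSTN) and 0.28 (DUSP23, beside CADM3).

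**Figure D3:**
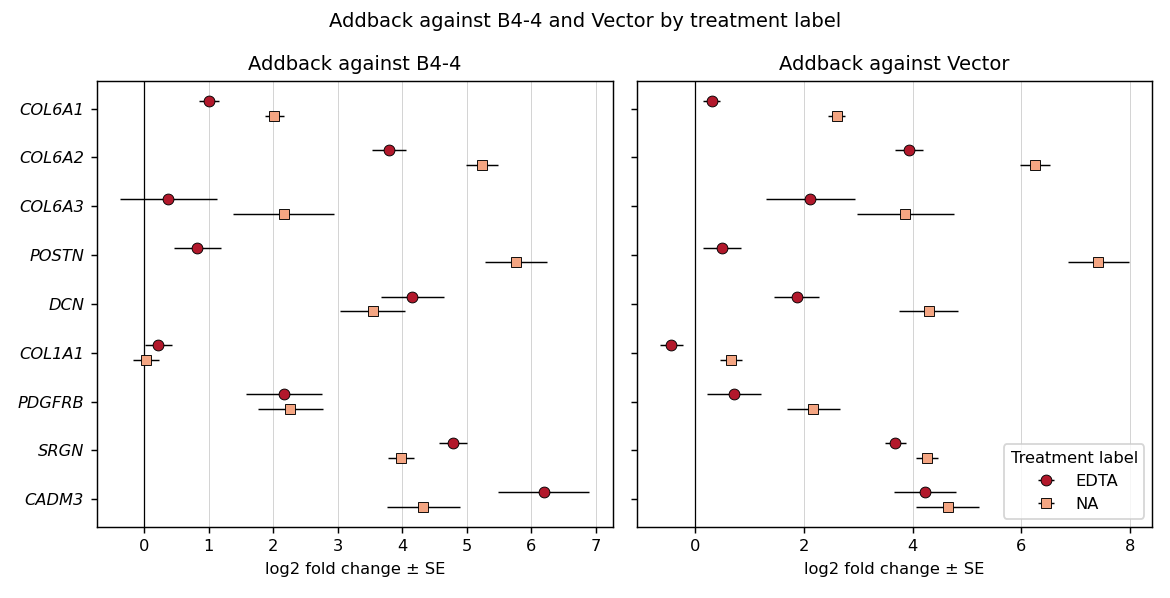
Log2 fold change of Addback over B4-4 (left) and over Vector (right) in EDTA (dark circles) and NA (light squares), with SE, for each of the 9 genes. The values chose the genes and are a description. COL6A2, SRGN and CADM3 are high under both labels, COL6A1 and POSTN mainly in NA, COL1A1 near 0, and the POSTN values in NA rest on 2 and 6 counts in Vector and B4-4.

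EDTA was compared with NA within each derivative. The choice of the genes names no treatment, but these comparisons use some of the libraries on which the genes were chosen. Choosing genes for high levels in Addback can favour genes high in Addback NA, and thus lower values in Addback EDTA. The calls and adjusted p-values within Addback are therefore a description and no independent support. In Addback, COL6A1, COL6A2, POSTN and COL1A1 fell with EDTA, 4 of the 9 genes, and 0 rose. Of all tested genes 16.9% were called, 8.29% lower and 8.64% higher. The COL6A1 mean was 11.9 ± 1.23 CPM in Addback EDTA and 39.5 ± 0.270 CPM in Addback NA (log2 -1.73 ± 0.15, adjusted p = 5.13e-05, here and below from edgeR's quasi-likelihood fit, adjusted by Benjamini-Hochberg over the 15749 genes). COL6A2 was at 7.72 ± 0.663 CPM in Addback EDTA and 31.1 ± 2.14 CPM in Addback NA (-2.01 ± 0.19, adjusted p = 7.45e-05). POSTN was at 2.83 ± 0.219 CPM in Addback EDTA and 10.3 ± 0.700 CPM in Addback NA (-1.86 ± 0.33, adjusted p = 0.00296). For these 3 genes both EDTA libraries lay below both NA libraries.

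COL1A1 fell less, to 11.6 ± 0.596 CPM in Addback EDTA against 19.7 ± 0.368 CPM in Addback NA (-0.76 ± 0.21, adjusted p = 0.0264). This call was lost without Addback NA 1 (adjusted p = 0.149), Addback NA 2 (0.102), Addback EDTA 1 (0.0538) or Addback EDTA 2 (0.131). SRGN was not called, at 27.7 ± 2.22 CPM in Addback EDTA and 27.2 ± 1.98 CPM in Addback NA (0.02 ± 0.16, adjusted p = 0.944, 95% interval -0.32 to 0.36). PDGFRB (-1.16 ± 0.45, adjusted p = 0.099), COL6A3 (-0.88 ± 0.73, 0.460), CADM3 (-0.42 ± 0.44, 0.554) and DCN (0.86 ± 0.40, 0.174) were not called. These 4 are the genes whose Addback EDTA libraries differed at least 2-fold. The signs for DCN and CADM3 turned with the Addback EDTA library left out. Without Addback EDTA 1, DCN was called higher (1.45, adjusted p = 0.00053), and without Addback EDTA 2 its value was -0.14. Without Addback EDTA 2, CADM3 was called lower (-1.52, adjusted p = 0.00853), and without Addback EDTA 1 its value was 0.20. PDGFRB was called lower without Addback EDTA 1 (adjusted p = 0.018). PDGFRB was also called lower without B4-4 NA 1 (0.0399) or B4-4 NA 2 (0.0403).

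In Vector, POSTN, DCN and COL6A1 rose with EDTA, 3 of the 9 genes, and 0 fell. Among all genes 15.3% were called, 6.36% higher and 8.98% lower. POSTN had 88 counts in Vector EDTA and 2 in Vector NA, a ratio of 37.2 with an exact 95% interval of 9.99 to 312 (log2 5.05 ± 0.66, adjusted p = 0.00043). DCN was at 9.49 ± 1.58 CPM in Vector EDTA and 0.974 ± 0.287 CPM in Vector NA (3.28 ± 0.55, adjusted p = 0.0044), and had an adjusted p of 0.0545 without Vector NA 2. Both genes thus reached, in Vector EDTA, levels closer to Addback than those of the same derivative in NA. COL6A1 was at 9.62 ± 0.563 CPM in Vector EDTA and 6.50 ± 0.628 CPM in Vector NA (0.56 ± 0.16, adjusted p = 0.0297). The COL6A1 call was lost when any of 8 libraries was left out (Addback NA 1 and 2, B4-4 EDTA 1 and 2, and all 4 Vector libraries), with adjusted p up to 0.234. SRGN (0.60 ± 0.23, adjusted p = 0.0977), COL1A1 (0.34 ± 0.20, 0.293) and COL6A3 (0.87 ± 0.98, 0.599) were not called, and neither were PDGFRB (0.29 ± 0.54, 0.761), COL6A2 (0.31 ± 0.39, 0.700) and CADM3 (-0.01 ± 0.72, 0.996). COL6A3 was called in the fit of the Vector libraries alone (adjusted p = 0.0400).

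In B4-4, POSTN rose with EDTA, while COL1A1, COL6A1 and SRGN fell, 4 of the 9 genes. Among all genes 19.9% were called, 9.88% higher and 10% lower, or 1556 higher and 1582 lower genes. With upper-quartile scaling factors the split was 1147 higher and 1972 lower. POSTN had 61 counts in B4-4 EDTA and 6 in B4-4 NA, a ratio of 8.82 (3.83 to 24.97, log2 3.09 ± 0.56, adjusted p = 0.00371). COL1A1 was at 10.02 ± 0.0889 CPM in B4-4 EDTA and 19.4 ± 7.10 CPM in B4-4 NA (-0.95 ± 0.21, adjusted p = 0.00937). COL6A1 was at 5.93 ± 0.0488 CPM in B4-4 EDTA and 9.74 ± 1.404 CPM in B4-4 NA (-0.72 ± 0.16, adjusted p = 0.00955). SRGN was at 0.995 ± 0.202 CPM in B4-4 EDTA and 1.73 ± 0.0873 CPM in B4-4 NA (-0.79 ± 0.26, adjusted p = 0.04996).

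In a fit of the 4 B4-4 libraries alone 0 of the 9 genes were called, with adjusted p = 0.0664 for POSTN, 0.0959 for COL6A1, 0.101 for COL1A1 and 0.186 for SRGN. Without B4-4 EDTA 1 or 2, COL1A1 (adjusted p = 0.0714 and 0.0681) and COL6A1 (0.0813 and 0.0690) were lost. SRGN was lost on leaving out any of the 12 libraries, with adjusted p between 0.0537 and 0.271. CADM3 had 10 counts in B4-4 EDTA and 43 in B4-4 NA, a ratio of 0.202 (0.0904 to 0.408), but was not called (-2.29 ± 0.93, adjusted p = 0.116). DESeq2 called it (0.0036), and so did edgeR without Addback EDTA 1 (0.00621), without Addback EDTA 2 (0.00639) and without both (0.00686). PDGFRB (-1.07 ± 0.65, adjusted p = 0.269), COL6A2 (-0.56 ± 0.35, 0.329), COL6A3 (0.91 ± 0.80, 0.462) and DCN (0.25 ± 0.60, 0.802) were not called. Without B4-4 NA 2, COL6A3 was called higher in EDTA (3.43, adjusted p = 0.00383).

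**Figure D4:**
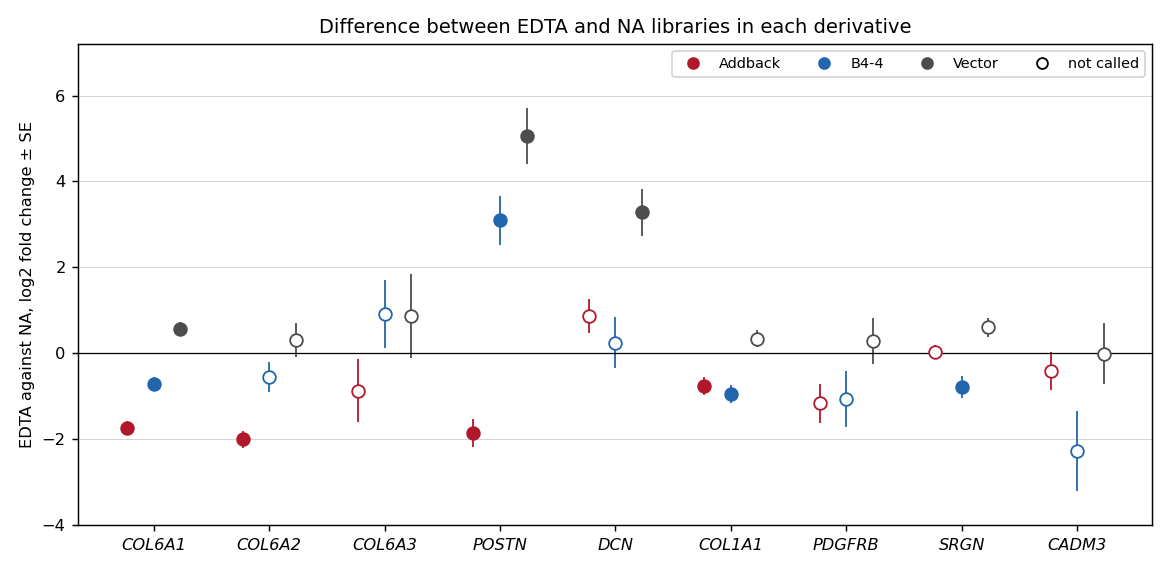
Log2 fold change of EDTA against NA, with SE, for each gene in Addback (red), B4-4 (blue) and Vector (grey). Filled points passed an adjusted p of 0.05, open points did not. The Addback points use libraries on which the genes were chosen, so their calls are a description. POSTN is higher in EDTA in B4-4 and Vector and lower in Addback, and COL6A1 is lower in EDTA in Addback and B4-4 and higher in Vector.

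The EDTA effect itself was tested for a difference between B4-4 and Vector, neither of which is Addback. COL6A1, COL1A1, SRGN and DCN had a lower EDTA effect in B4-4, 4 of the 9 genes, and 0 had a higher one. Among all genes 27% were called, 12.6% lower and 14.4% higher, or 2268 higher and 1981 lower genes. With upper-quartile scaling factors the split was 1805 higher and 2497 lower. The difference of log2 effects was -1.28 ± 0.22 for COL6A1 (adjusted p = 0.00166) and -1.29 ± 0.29 for COL1A1 (adjusted p = 0.00728), and both calls held on leaving out any library. It was -1.39 ± 0.35 for SRGN (adjusted p = 0.0116), which was lost without B4-4 EDTA 2 (0.056) or Vector NA 1 (0.0521). For DCN it was -3.04 ± 0.83 (adjusted p = 0.0251), lost on leaving out any of 7 libraries (the 4 B4-4 libraries, Vector NA 1 and 2, and Vector EDTA 1), with adjusted p up to 0.169. COL6A2 (-0.87 ± 0.53, adjusted p = 0.302), POSTN (-1.96 ± 1.11, 0.213), CADM3 (-2.28 ± 1.19, 0.190), PDGFRB (-1.36 ± 0.85, 0.257) and COL6A3 (0.04 ± 1.34, 0.987) were not called. CADM3 was called lower with DESeq2 (adjusted p = 0.0251), in the fit of the B4-4 and Vector libraries alone (0.0367), and without Addback EDTA 1 (0.015), Addback EDTA 2 (0.0158) or both (0.0162). The COL6A3 value turned with 1 library: it was 2.57 (adjusted p = 0.0368) without B4-4 NA 2 and -0.86 without B4-4 NA 1.

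B4-4 was then set against Vector under each treatment label. In EDTA, COL6A1, DCN, SRGN and COL1A1 were lower in B4-4, 4 of the 9 genes, and 0 were higher. Among all genes 43.4% were called, 20.4% lower and 22.9% higher, so that a share of this size was common. COL6A1 was at 5.93 ± 0.0488 CPM in B4-4 EDTA and 9.62 ± 0.563 CPM in Vector EDTA (-0.70 ± 0.16, adjusted p = 0.00357). DCN was at 1.94 ± 0.189 CPM in B4-4 EDTA and 9.49 ± 1.58 CPM in Vector EDTA (-2.28 ± 0.49, adjusted p = 0.00489). SRGN was at 0.995 ± 0.202 CPM in B4-4 EDTA and 2.15 ± 0.164 CPM in Vector EDTA (-1.11 ± 0.24, adjusted p = 0.00304). In each of these both B4-4 libraries lay below both Vector libraries, and no left-out library ended the call.

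COL1A1 was at 10.02 ± 0.0889 CPM in B4-4 EDTA and 15.8 ± 2.16 CPM in Vector EDTA (-0.65 ± 0.21, adjusted p = 0.0233). It was lost without B4-4 EDTA 1 (0.0911), B4-4 EDTA 2 (0.0988) or Vector EDTA 2 (0.155). PDGFRB (-1.45 ± 0.61, 0.0718), CADM3 (-1.96 ± 0.93, 0.119), COL6A3 (1.75 ± 0.82, 0.127), POSTN (-0.32 ± 0.37, 0.512) and COL6A2 (0.14 ± 0.37, 0.814) were not called. In the fit of these 4 libraries alone 7 of the 9 genes were called, 1 higher in B4-4 (COL6A3, 1.74, adjusted p = 4.6e-05) and 6 lower, among them PDGFRB (-1.46, 0.0215) and CADM3 (-1.97, 0.00327). In edgeR's fit of the other libraries CADM3 was also called without Addback EDTA 1 (adjusted p = 0.00561) or 2 (0.00588), COL6A3 without B4-4 NA 1 (0.00287) or 2 (0.00288), and PDGFRB without any of these 4 libraries (0.0378 to 0.0404). In NA, COL6A1 was higher in B4-4 at 9.74 ± 1.404 CPM against 6.50 ± 0.628 CPM in Vector (0.58 ± 0.16, adjusted p = 0.0442), 1 of the 9 genes, where 7.16% of all genes were called, 3.38% higher and 3.78% lower. This call was lost without any of 9 libraries, with adjusted p up to 0.301, and was 0.233 in the fit of the 4 compared libraries alone. The 9 were Addback NA 1 and 2, B4-4 NA 1, B4-4 EDTA 1 and 2, and the 4 Vector libraries. The other 8 genes were not called in NA, with log2 differences from -0.10 (PDGFRB) to 1.71 (COL6A3) and adjusted p from 0.0826 (COL1A1) to 0.940 (PDGFRB). Without B4-4 NA 1, COL6A3 (2.59, adjusted p = 0.00445) and COL1A1 (0.000973) were called higher in B4-4, and without B4-4 NA 2 the COL6A3 difference was -0.82.

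The order of the 6 groups differed between genes. Addback NA was highest for COL6A1, COL6A2, COL6A3, POSTN, COL1A1, PDGFRB and CADM3, and Addback EDTA for DCN and SRGN. The top group and the next one overlapped for DCN, COL1A1, SRGN and CADM3 and were apart for the other 5. The lowest group was B4-4 EDTA for COL6A1, COL1A1, PDGFRB, SRGN and CADM3, and Vector NA for COL6A2, COL6A3, POSTN and DCN. Over the 12 libraries, Pearson's r of log2 CPM between 2 of the 9 genes had a median of 0.688 over 36 pairs and ranged from 0.173 (DCN with COL1A1) to 0.958 (SRGN with CADM3). Of the 36 pairs, 12 had an r over 0.8 and 8 an r under 0.5. Each gene was also set against the mean of the other 8: r was 0.946 for COL6A2, 0.913 for SRGN, 0.906 for COL6A1 and 0.905 for CADM3, down to 0.666 for COL6A3 and 0.356 for COL1A1. The points share their groups and the genes were chosen for a common high group, so these values only describe which of them follow the common pattern.

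Of 10616 other genes with a symbol and a mean of at least 5 CPM, those most like the mean of the 9 standardised genes over the 12 libraries were PPT1 (r = 0.982), CHD3 (0.973), LYRM4 (0.963), S100A4 (0.957), PLPP3 (0.953), DLK2 (0.953), GGT5 (0.953) and AIF1L (0.951). Their sizes of difference varied. S100A4, which codes for a calcium-binding protein, was at 82.6 CPM in Addback EDTA, 143 CPM in Addback NA, 12.7 CPM in B4-4 EDTA, 18.3 CPM in B4-4 NA, 22.5 CPM in Vector EDTA and 11.3 CPM in Vector NA. GGT5 was at 12.8 CPM in Addback EDTA, 29.9 CPM in Addback NA, 1.997 CPM in B4-4 EDTA, 3.37 CPM in B4-4 NA, 4.67 CPM in Vector EDTA and 3.24 CPM in Vector NA. PPT1, the lysosomal palmitoyl-protein thioesterase, had the highest r but differed little in level, at 187 CPM in Addback NA and 111 CPM in Vector NA. Pearson's r measures how linear a relation is and says nothing of the size of the differences.

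Genes of the same pathways were counted from lists that leave out the 9 genes. The shares of all genes to set beside these counts are 12.7% higher and 14.1% lower in Addback than in B4-4, and 20% higher and 19.2% lower than in Vector. Of 14 tested collagen chains, 3 were higher and 4 lower in Addback than in B4-4, and 6 were higher and 6 lower than in Vector. The median log2 difference of the list was -0.17 against B4-4 and 0.31 against Vector, where the medians over all genes were -9.33e-06 and 0.01. COL18A1, the chain of a basement membrane collagen, had 68 and 71 counts in Addback EDTA, 305 and 306 in Addback NA, 12 and 18 in B4-4 EDTA, 17 and 10 in B4-4 NA, 26 and 27 in Vector EDTA and 19 and 18 in Vector NA. It was higher in Addback than in B4-4 (3.35 ± 0.19, adjusted p = 3.12e-07) and than in Vector (2.90 ± 0.18, adjusted p = 4.25e-07), over both treatments. COL8A1, a short-chain collagen, was higher than in Vector (2.57 ± 0.20, adjusted p = 1.62e-05), while COL7A1, the anchoring fibril collagen, was lower than in B4-4 (-1.31 ± 0.09, adjusted p = 1.56e-06).

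Of 21 collagen processing enzymes, 2 were higher and 7 lower in Addback than in B4-4, and 5 were higher and 8 lower than in Vector. The prolyl 3-hydroxylase P3H2 was lower than in B4-4 (-1.09 ± 0.07, adjusted p = 1.02e-06) and than in Vector (-1.65 ± 0.07, adjusted p = 2.75e-08). P4HA2, a prolyl 4-hydroxylase subunit, was lower as well, by log2 -0.86 ± 0.07 (adjusted p = 3.93e-06) and -0.58 ± 0.07 (adjusted p = 4.3e-05). Of 10 collagen receptors, 3 were higher and 2 lower than in B4-4, and 1 was higher and 2 lower than in Vector. The integrin chain ITGA10 was higher than in B4-4 (1.47 ± 0.13, adjusted p = 1.2e-05) and lower than in Vector (-0.72 ± 0.12, adjusted p = 0.000611) over both treatments. Its difference from Vector had opposite signs in EDTA (-2.002 ± 0.18) and in NA (0.55 ± 0.17).

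Of 12 proteoglycan core proteins, 3 were higher and 3 lower in Addback than in B4-4, and 4 were higher and 5 lower than in Vector. The syndecan SDC3 was higher than in both, by log2 0.54 ± 0.08 (adjusted p = 0.000544) against B4-4 and 0.80 ± 0.08 (adjusted p = 1.65e-05) against Vector. Versican, VCAN, was lower than in both, at -0.75 ± 0.08 (adjusted p = 3.61e-05) and -0.64 ± 0.08 (adjusted p = 5.79e-05). FMOD, a relative of decorin, had 4 and 2 counts in Addback EDTA, 36 and 36 in Addback NA, and at most 1 count in every B4-4 and Vector library. Of 13 genes of glycosaminoglycan chain synthesis, 0 were higher and 5 lower than in B4-4, and 4 were higher and 5 lower than in Vector, CSGALNACT1 being lower than in both (-1.73 ± 0.22, adjusted p = 0.000208, and -1.45 ± 0.22, adjusted p = 0.000344).

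Of 19 matricellular and elastic fibre genes, 4 were higher and 6 lower than in B4-4, and 5 were higher and 2 lower than in Vector. CCN2, a secreted matricellular protein, was higher than in both, by log2 1.47 ± 0.15 (adjusted p = 4.27e-05) against B4-4 and 3.02 ± 0.16 (adjusted p = 1.49e-07) against Vector. By treatment label the difference from B4-4 was -0.12 ± 0.20 in EDTA and 3.06 ± 0.23 in NA. Tenascin C, TNC, was lower than in B4-4 (-1.84 ± 0.16, adjusted p = 1.49e-05), by -2.87 ± 0.22 in EDTA and -0.82 ± 0.23 in NA. Of 8 mesenchymal transcription factors, 3 were higher and 0 lower than in B4-4, and 2 were higher and 2 lower than in Vector. ZEB2 was higher than in both, by 1.86 ± 0.26 (adjusted p = 0.000334) and 2.13 ± 0.27 (adjusted p = 8.15e-05), and SNAI2 was lower than in Vector (-0.96 ± 0.18, adjusted p = 0.00319), over both treatments. By label, the ZEB2 difference from Vector was 0.59 ± 0.35 in EDTA and 3.68 ± 0.40 in NA, and that of SNAI2 was -1.97 ± 0.27 in EDTA and 0.06 ± 0.26 in NA. Of 5 other genes of the PDGF system, 1 was higher and 2 lower than in B4-4, and 2 were higher and 1 lower than in Vector. The ligand PDGFC was lower than in both over both treatments (-0.49 ± 0.08, adjusted p = 0.000674, and -0.38 ± 0.08, adjusted p = 0.00194). Its difference from B4-4 was -0.89 ± 0.11 in EDTA and -0.09 ± 0.11 in NA. PDGFRL, of the same list, went the other way. Its fitted difference from Vector was 1.09 ± 0.56 in EDTA and 7.44 ± 0.99 in NA. From B4-4 the PDGFRL difference was 1.20 ± 0.59 in EDTA and 1.55 ± 0.48 in NA. Of 7 genes of the CADM and nectin family, 0 were higher and 2 lower than in B4-4, and 2 were higher and 1 lower than in Vector. CADM1 and CADM2, of the same family as CADM3, had at most 1 count in every library.

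**Figure D5:**
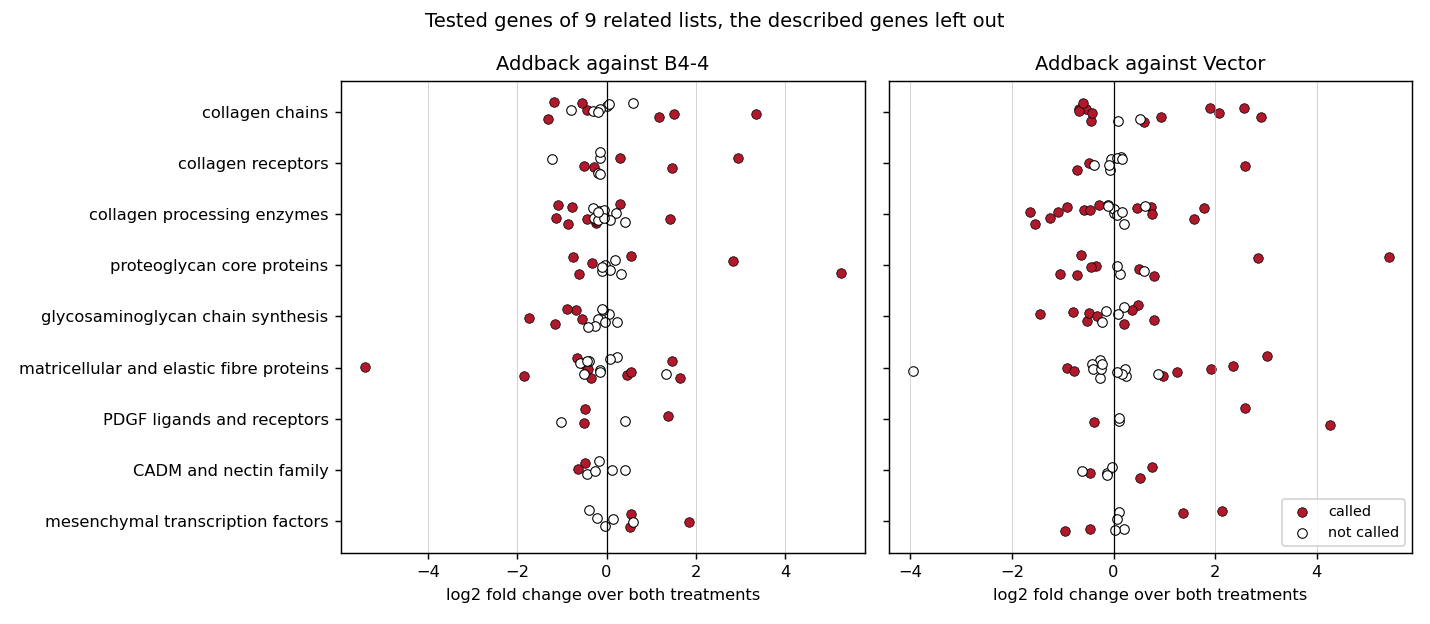
Log2 fold change of Addback over B4-4 (left) and over Vector (right), over both treatments, for each tested gene of 9 lists of related genes, the 9 described genes left out. Filled points passed an adjusted p of 0.05. Both directions occur in most lists, and the fitted values of genes near the limit of counting, such as FMOD, depend on the prior count.

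With EDTA in Addback, 0 of the 14 collagen chains rose and 4 fell, COL18A1 among them (-2.07 ± 0.22, adjusted p = 0.000113). The medians were -0.31 for the list and 0.01 for all genes, and the shares of all genes that rose and fell with EDTA are 8.64% and 8.29% in Addback, 9.88% and 10% in B4-4, and 6.36% and 8.98% in Vector. In B4-4, 7 of the 14 rose with EDTA and 1 fell, and in Vector 3 rose and 0 fell. COL17A1, the hemidesmosome collagen, rose in B4-4 (0.84 ± 0.08, adjusted p = 8.41e-05), and COL4A1, a basement membrane chain, rose in Vector (1.06 ± 0.20, adjusted p = 0.00454). Of the 19 matricellular and elastic fibre genes, 0 rose and 5 fell with EDTA in Addback, 7 rose and 3 fell in B4-4, and 2 rose and 0 fell in Vector. Thrombospondin 1, THBS1, fell in Addback (-1.14 ± 0.17, adjusted p = 0.00107) and rose in B4-4 (2.45 ± 0.17, adjusted p = 1.3e-05) and in Vector (1.68 ± 0.17, adjusted p = 0.000105). SPARC, a collagen-binding glycoprotein, fell in Addback (-1.35 ± 0.21, adjusted p = 0.0018) and rose in Vector (0.97 ± 0.20, adjusted p = 0.00913). The SPARC call in Vector was lost without Vector NA 1, Vector NA 2 or Vector EDTA 1, with adjusted p up to 0.0733. These 2 genes, like POSTN, had opposite signs in Addback and Vector; the difference between the derivatives was not tested. Of the 10 collagen receptors, 0 rose and 3 fell in Addback, ITGA10 most clearly (-1.87 ± 0.18, adjusted p = 7.45e-05).

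Markers of other cells were examined because several of the 9 genes are typical of fibroblasts, pericytes, blood cells or neural cells. Of 8 fibroblast markers, COL1A2, COL3A1 and THY1 had at most 3 counts in every library, and the summed level of the list was 251 to 350 CPM in Addback EDTA, 361 to 379 CPM in Addback NA, 301 to 319 CPM in B4-4 EDTA, 335 to 521 CPM in B4-4 NA, 304 to 337 CPM in Vector EDTA and 397 to 399 CPM in Vector NA. As a sum the fibroblast list was not higher in Addback. Such a sum follows its most abundant genes and can hide a change in genes of low level, such as LUM at 3.51 CPM in Addback NA. Its 4 tested markers had a median log2 difference over both treatments of 0.10 against B4-4 and 1.20 against Vector. The medians over all genes were -9.33e-06 and 0.01. In each comparison 1 of the 4 was called higher and 0 lower. Of all genes, 12.7% were called higher and 14.1% lower than in B4-4, and 20% higher and 19.2% lower than in Vector. By label, the difference of LUM from Vector was -0.26 ± 0.43 in EDTA and 1.47 ± 0.45 in NA. For FAP, a protease of activated fibroblasts, it was 2.89 ± 0.95 in EDTA and 0.70 ± 0.91 in NA. Against B4-4, LUM differed by -0.04 ± 0.44 in EDTA and 0.69 ± 0.43 in NA, and FAP by -0.11 ± 0.84 and -0.13 ± 0.89. The tested marker FBLN1 differed by -0.29 ± 0.16 in EDTA and -0.16 ± 0.16 in NA from Vector. From B4-4 it differed by -0.05 ± 0.16 in EDTA and -0.23 ± 0.16 in NA. DPT (dermatopontin), also on that list, had 61 and 12 counts in Addback EDTA and 56 and 46 in Addback NA, and 0 in all 8 other libraries. Against 3 counts over a group, Addback was at least 26.7-fold higher than B4-4 and at least 31.0-fold higher than Vector in EDTA, and at least 31.0-fold higher than B4-4 and at least 34.9-fold higher than Vector in NA.

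Of 8 pericyte and smooth muscle markers CNN1 was at 0 throughout, and the sum was 28.2 to 59.9 CPM in Addback EDTA, 32.0 to 33.2 CPM in Addback NA, 28.7 to 77.1 CPM in B4-4 and 24.9 to 26.6 CPM in Vector. Of 7 endothelial markers CDH5 was at 0. The sum was 12.7 to 35.7 CPM in Addback EDTA, 3.51 to 4.14 CPM in B4-4 EDTA and 23.6 to 25.8 CPM in Vector EDTA. In NA it was highest in Addback, at 32.2 to 32.9 CPM. It was 10.3 to 26.3 CPM in B4-4 NA and 25.2 to 26.0 CPM in Vector NA. Of the 2 tested endothelial markers, 1 was called higher in Addback than in B4-4 and 0 higher than in Vector, over both treatments. Of 8 blood cell markers LYZ and TYROBP were at 0 and PTPRC and KIT at most at 3 counts, and the sum was 12.3 to 16.1 CPM in Addback and 4.26 to 83.0 CPM in the others. Of 8 neural and glial markers SOX10 and GAP43 were at 0, and the sum was 2.39 to 3.69 CPM in Addback and 1.96 to 3.94 CPM in the others. All 10 mammary epithelial markers were detected, and their sum did not overlap between derivatives in NA, at 9906 to 10235 CPM in Addback NA, 11758 to 12711 CPM in B4-4 NA and 14593 to 14690 CPM in Vector NA. In EDTA it was 10095 to 11009 CPM in Addback EDTA, 14680 to 15690 CPM in B4-4 EDTA and 10340 to 10856 CPM in Vector EDTA. Over both treatments 5 of the 10 were lower in Addback than in B4-4 and 1 was higher, and 5 were lower than in Vector and 2 higher. Among all genes 14.1% were lower and 12.7% higher in Addback than in B4-4, and 19.2% were lower and 20% higher than in Vector. The part of these markers in the results above was not tested.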

How the data were processed

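The authors deposited raw read counts for 12 libraries, as whole numbers for each Ensembl gene. The submitters' processing notes name TopHat2 2.1.1, SAMtools 1.4.1, featureCounts 1.5.3 and, with no roles, the builds GRCh38, hg19 and hg38. The sources used here do not give the annotation release or the strand setting of the counting. PolyA libraries were stranded, per the labels' protocols. Gene coordinates are those of GENCODE release 29 (GRCh38) and were matched by identifier.

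Totals were 15685376 to 22156173 counts, and at least 99.87% of each lay in tested genes, which sets the counting error of each gene. The 9 genes and the related lists were chosen with earlier results of these data known. Groups were taken from the labels. In R 4.3.3 with edgeR 4.0.16, genes were filtered with filterByExpr over 6 groups (15749 left) and scaled with TMM factors. A single robust quasi-likelihood fit of 6 group means over the 12 libraries gave all contrasts. A gene was called at an adjusted p (Benjamini-Hochberg, all tested genes) below 0.05. SE is the fold change over the square root of F. Genes named are the 9, ITGB4, up to 4 genes per list with the smallest p in a contrast, and the 8 of highest r. DPT, FMOD, FAP, LUM, FBLN1, PDGFA, PDGFB, PDGFRL, CADM1, CADM2 and the neighbouring genes were named after their values were seen. The test was checked on simulated counts. The main fit did not pair samples by replicate number. Deviations were correlated over 0.1 in 5 of 15 pairs of groups, which does not decide whether the numbers pair the samples. As alternatives served RLE and upper-quartile scaling, no filter, DESeq2 1.42.0, a replicate block, the compared groups alone and leaving out each library. Leaving out both B4-4 NA or both Addback EDTA libraries was chosen after seeing the data.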

Additional observations from a re-analysis of the deposited data

Results flagged for a closer look

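The EDTA effect differed between B4-4 and Vector, by edgeR's test of the difference of log2 effects, for 4 of the 9 genes. The differences were -1.28 for COL6A1, -1.29 for COL1A1, -1.39 for SRGN and -3.04 for DCN. For COL6A1, COL1A1 and SRGN the EDTA effect was below 0 in B4-4 and above 0 in Vector. In both derivatives the EDTA libraries of each gene lay on 1 side of the NA libraries. The effects of COL1A1 and SRGN in Vector were not called. For DCN the effect was 0.25 in B4-4 and 3.28 in Vector.

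For 4 genes every EDTA library lay below every NA library in Addback and above it in Vector. The log2 effect in Addback minus that in Vector was -2.30 for COL6A1, -1.75 for COL6A3, -6.92 for POSTN and -1.10 for COL1A1. POSTN moved in opposite directions in Addback and B4-4 too, with a difference of -4.95. These differences were not tested, since they use the Addback libraries on which the genes were chosen, and those of POSTN rest on 2 counts in Vector NA and 6 in B4-4 NA.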

How the results depend on the processing

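Of 1375 fold changes of the 9 genes under other settings, 1239 kept their direction and their side of the threshold, 61 lost a call, 39 gained one, 14 untested values moved by more than their SE and 22 changed sign, 0 of them a called value. COL1A1 in Addback against B4-4, 0.12 in all libraries, ranged from -0.0353 without B4-4 NA 1 to 0.329 without B4-4 NA 2. On leaving out 1 library, EDTA in Vector ranged from -0.0392 to 0.815 for COL6A2, -0.177 to 0.644 for PDGFRB and -0.368 to 0.435 for CADM3, and EDTA in Addback from -0.135 to 1.45 for DCN, -0.0527 to 0.101 for SRGN and -1.52 to 0.200 for CADM3. B4-4 against Vector in NA ranged from -0.816 to 2.59 for COL6A3, -1.11 to 0.462 for PDGFRB and -0.283 to 0.768 for CADM3, in EDTA from -0.120 to 0.434 for COL6A2, and the difference of EDTA effects from -0.858 to 2.57 for COL6A3. Of related genes, EDTA in Addback ranged from -0.878 to 1.61 for PDGFB and -2.02 to 0.342 for DPT, and Addback against Vector from -0.0360 to 0.220 for PDGFA. With upper-quartile factors the sign turned for EDTA in Vector of CADM3 (0.0215), EDTA in Addback of SRGN (-0.0261) and the difference of EDTA effects of COL6A3 (-0.0744). In fits of the compared groups alone, the genes called were 4672 in place of 2416 for EDTA in Vector, 291 in place of 3138 for EDTA in B4-4 (0 in place of 4 of the 9 genes) and 6 in place of 1128 for B4-4 against Vector in NA (0 in place of 1). For B4-4 against Vector in EDTA 7 in place of 4 of the 9 genes were called. With no filter B4-4 against Vector in NA had 1874 called genes. Without both B4-4 NA libraries EDTA in Vector had 3983 called genes, and EDTA in Addback had 4306 in place of 2666. Whether the replicate numbers pair the samples cannot be told from the correlations of deviations between groups (-0.17 to 0.30). With the number as a replicate block 0 in place of 1 of the 9 genes were called for B4-4 against Vector in NA (COL6A1, adjusted p = 0.0522), and SRGN was lost for EDTA in B4-4 (0.0568). With upper-quartile factors the median over all genes of the difference of EDTA effects was -0.12, against -0.01 with TMM factors.

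On leaving out 1 library, called genes ranged from 724 to 4020 for EDTA in Vector (1 to 3 of the 9 genes), 726 to 4549 for EDTA in B4-4 (1 to 4) and 615 to 4319 for EDTA in Addback (3 to 5). They ranged from 81 to 3319 for B4-4 against Vector in NA (0 to 2) and from 4383 to 8169 in EDTA (3 to 6). For the difference of EDTA effects the range was 2364 to 5515 (2 to 5), for Addback against Vector 4603 to 7641, and for Addback against B4-4 2571 to 5272. The lowest counts came without a library of the compared groups, and the highest for EDTA in Vector and in Addback and for B4-4 against Vector in NA came without B4-4 NA 1. The cause was not tested. With 2 libraries a group, precision is limited by low counts for COL6A2, POSTN, PDGFRB, SRGN and CADM3 (at most 51 in any B4-4 or Vector library), and the SE of COL6A3, which had 14 and 135 counts in B4-4 NA, reached 1.34 for the difference of EDTA effects.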
